A study of Mus musculus with 18 samples.

Results

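The genes described here are 8 small proline-rich region genes of the mouse, Sprr1a, Sprr2b, Sprr2d, Sprr2e, Sprr2f, Sprr2g, Sprr2h and Sprr2i. They were found as the probes of an Agilent 1-colour array whose transcript accession maps to those symbols, among 14 Sprr genes with a probe and 22911 symbols on the array. Testing required a probe to be well above background on 3 or more of the 18 arrays, which 6 of the 8 genes met, among 33178 features tested. Sprr2h and Sprr2i did not meet it and are given by their values only.

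The 18 arrays fall into 6 groups of 3, and each array carried RNA pooled from 3 animals. ERBOE mice are described by the submitters as overexpressing oestrogen receptor beta, and PRCre/+ mice, which carry Cre recombinase driven from the progesterone receptor locus, were their controls. Ectopic lesions of ERBOE or PRCre grew from a uterine fragment of a donor of that genotype, punched at 2 mm, that was implanted at 8 weeks of age in a wild-type C57BL/6J host and collected 4 weeks later. Eutopic endometrium of ERBOE or PRCre came from hosts of that genotype that had received a wild-type fragment at 8 weeks, again 4 weeks after surgery. Uterus of ERBOE or PRCre came from mice of 12 weeks without surgery, and all tissue was collected at estrus. The labels do not give the overexpression allele or say whether ERBOE mice also carry PRCre. For the ERBOE lesions and ERBOE eutopic samples, 1 label field says that the mice had no endometriosis while their titles say otherwise, and the design text for the eutopic samples speaks of lesions being harvested before eutopic endometria were pooled. Titles were followed. Lesions hold host cells as well as cells of the donor fragment, so their genotype is that of the fragment only.

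Small proline-rich proteins are precursors of the cornified envelope, the protein shell that transglutaminases cross-link beneath the membrane of stratified squamous epithelia. Their genes lie together in the epidermal differentiation complex. In the mouse uterus, Sprr2 genes are known as oestrogen-induced genes of the epithelium, whose mRNA rises and falls with the oestrous cycle.

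The promoter letters show how alike these genes are at their starts. The 250 bases before the start of the gene were read from the RefSeq promoter table of GRCm38.p6, which held 7 of the 8 members and not Sprr2g. Sprr2f and Sprr2b are shown first because they were the pair most alike across arrays. Sprr2d and Sprr2e are the pair with the most similar promoters, and Sprr1a is the only member outside the Sprr2 group. They lie at chr3:92364937-92365186 for Sprr2f, chr3:92316455-92316704 for Sprr2b, chr3:92338890-92339139 for Sprr2d and chr3:92351893-92352142 for Sprr2e, all on the plus strand, and at chr3:92485882-92486131 for Sprr1a, on the minus strand. Each is written 5′ to 3′ along its gene, and capitals mark the AP-1 motif TGAGTCA, the octamer ATTTGCAT and the TATA motif TATAAA.
Sprr2f: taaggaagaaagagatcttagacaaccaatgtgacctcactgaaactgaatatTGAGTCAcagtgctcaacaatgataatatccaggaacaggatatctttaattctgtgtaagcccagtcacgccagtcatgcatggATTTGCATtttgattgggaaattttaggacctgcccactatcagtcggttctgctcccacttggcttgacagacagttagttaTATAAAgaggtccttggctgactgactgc
Sprr2b: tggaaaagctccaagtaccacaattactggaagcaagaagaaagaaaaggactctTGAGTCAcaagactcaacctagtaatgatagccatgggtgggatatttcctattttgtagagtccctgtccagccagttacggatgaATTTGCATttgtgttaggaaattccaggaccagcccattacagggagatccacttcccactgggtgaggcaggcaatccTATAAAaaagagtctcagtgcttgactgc
Sprr2d: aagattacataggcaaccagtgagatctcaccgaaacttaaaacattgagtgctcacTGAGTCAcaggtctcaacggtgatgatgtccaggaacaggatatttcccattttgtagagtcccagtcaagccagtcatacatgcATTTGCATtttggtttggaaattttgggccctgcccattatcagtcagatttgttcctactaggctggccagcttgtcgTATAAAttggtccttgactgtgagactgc
Sprr2e: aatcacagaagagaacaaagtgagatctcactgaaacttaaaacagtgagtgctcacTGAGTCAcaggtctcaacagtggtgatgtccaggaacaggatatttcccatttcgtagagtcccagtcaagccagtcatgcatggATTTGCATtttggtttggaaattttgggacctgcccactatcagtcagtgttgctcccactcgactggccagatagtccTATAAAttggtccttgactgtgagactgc
Sprr1a: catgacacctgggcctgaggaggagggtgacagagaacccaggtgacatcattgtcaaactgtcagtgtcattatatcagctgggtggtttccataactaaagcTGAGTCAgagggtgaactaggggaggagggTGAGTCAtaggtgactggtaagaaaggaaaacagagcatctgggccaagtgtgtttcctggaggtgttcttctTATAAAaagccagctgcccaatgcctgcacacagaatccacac

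Motifs were searched on both strands, and no capitals of different motifs overlapped. The AP-1 motif was in 7 of 7 members' promoters and in 4.46% of all 32851 promoters of the table, and the TATA motif was in 7 of 7 members and in 12.4% of all promoters. The octamer was in 6 of 7 members, all of them Sprr2 genes, and in 1.60% of all promoters. In the Sprr2 promoters the first base of the AP-1 motif lay 193 to 198 bases before the start, that of the octamer 108 to 112 and that of the TATA motif 29. Sprr1a had AP-1 motifs at 146 and 116 bases and the TATA motif at 43. The palindromic oestrogen response element, GGTCA followed by any 3 bases and TGACC, was in 0 of 7 members and in 0.0639% of all promoters. Its single arm GGTCA, which any full element also contains, was in 1 of 7 members, Sprr2f, on the minus strand 219 bases before the start and left in lower case above, and in 35.2% of all promoters. Aligned to each other, the Sprr2d and Sprr2e promoters shared 89.3% of their bases. The least alike pair of Sprr2 promoters shared 60.1%, and no Sprr2 promoter shared more than 51.2% with Sprr1a. Because the Sprr2 promoters are so alike, the members with a motif are no independent counts beside the share of all promoters. These are matches of letters in a short window and not measured binding.

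Levels are log2 intensity minus the array's 75th percentile, so 0 means the brightness of the 75th percentile probe of that array. A level belongs to its own probe, and levels of different probes are not set against each other. The 75th percentile signal was 239.6 on PRCre uterus replicate 1 and 455.1 to 744.7 on the other arrays, 55.3% to 74.2% of spots rose well above background, and saturated spots numbered 0. Esr2, which encodes oestrogen receptor beta, lay between 2.07 and 2.82 on all arrays. The ERBOE minus PRCre difference of Esr2 was -0.26 ± 0.20 in ectopic lesions, 0.01 ± 0.20 in eutopic endometrium and -0.24 ± 0.20 in uterus (limma standard error, n = 3 each), and none passed the test. Whether this probe reads the overexpressed transcript was not tested, and ERBOE and PRCre stand below for the arrays so labelled. Esr1, which encodes oestrogen receptor alpha, differed by -0.18 ± 0.33, 0.09 ± 0.33 and 0.06 ± 0.33 in the same order of tissues, and Pgr, the progesterone receptor gene, by -0.22 ± 0.59, 0.42 ± 0.59 and -0.27 ± 0.59.

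Sprr2f, known as an oestrogen-induced gene of the mouse uterine epithelium, was well above background on all 18 arrays. In ectopic lesions its level was 6.44, 5.29 and 5.75 in ERBOE, against 2.92, 7.12 and 6.48 in PRCre. In eutopic endometrium it was 5.42, 4.09 and 5.51 in ERBOE, against 0.14, 8.95 and 6.10 in PRCre. In uterus it was 6.59, 6.80 and 5.34 in ERBOE, against 7.68, 4.99 and 3.41 in PRCre. The PRCre eutopic group held both the lowest and the highest of the 18 arrays, in replicates 1 and 2, and the ERBOE arrays of each tissue lay inside the range of the PRCre arrays. The group means ran from 6.24 ± 0.79 in ERBOE uterus through 5.82 ± 0.58 in ERBOE ectopic, 5.51 ± 2.27 in PRCre ectopic, 5.36 ± 2.16 in PRCre uterus and 5.06 ± 4.50 in PRCre eutopic to 5.01 ± 0.80 in ERBOE eutopic (SD, n = 3 each). All neighbours in this order overlapped, and so did its ends.

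Sprr2b, another cornified envelope precursor of the cluster, followed the same arrays. In ectopic lesions its level was 5.32, 3.55 and 3.66 in ERBOE, against 1.31, 4.66 and 4.22 in PRCre. In eutopic endometrium it was 2.92, 2.59 and 3.11 in ERBOE, against -0.01, 7.07 and 3.48 in PRCre. In uterus it was 4.21, 4.14 and 3.02 in ERBOE, against 5.48, 2.70 and 1.49 in PRCre. PRCre eutopic replicates 1 and 2 were again the extremes of the 18 arrays, and the genotypes overlapped in every tissue. The 3 ERBOE ectopic arrays were all above the 3 ERBOE eutopic arrays, the nearest values being 3.55 in ERBOE ectopic and 3.11 in ERBOE eutopic. Group means ran from 4.18 ± 0.99 in ERBOE ectopic to 2.87 ± 0.26 in ERBOE eutopic (SD, n = 3 each).

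Sprr2g is listed by RefSeq as a transcribed pseudogene and was well above background on all 18 arrays. In ectopic lesions its level was 1.25, 1.95 and 0.58 in ERBOE, against -1.37, 1.56 and 1.43 in PRCre. In eutopic endometrium it was 0.00, 2.33 and 0.15 in ERBOE, against -2.39, 4.32 and 0.42 in PRCre. In uterus it was 1.09, 1.30 and 0.20 in ERBOE, against 3.12, 1.22 and 0.05 in PRCre. The extremes were the same pair of PRCre eutopic arrays, and ERBOE eutopic replicate 2, which was the lowest of its group for Sprr2f and Sprr2b, was the highest of its group for Sprr2g.

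Sprr1a encodes the cornifin-type precursor that is also induced by injury and stress in several tissues. In ectopic lesions its level was -1.65, -1.74 and -1.11 in ERBOE, against -1.72, -0.73 and 0.01 in PRCre. In eutopic endometrium it was -2.60, -3.47 and -1.73 in ERBOE, against -4.76, 2.53 and -1.21 in PRCre, and the lowest of these was not well above background. In uterus it was 0.54, 1.52 and -0.41 in ERBOE, against 0.46, -1.77 and -3.63 in PRCre. The 3 ERBOE uterus arrays were above all ERBOE ectopic and ERBOE eutopic arrays, while the PRCre uterus arrays overlapped every other group. The group means were -1.50 ± 0.34 in ERBOE ectopic and -0.81 ± 0.87 in PRCre ectopic, -2.60 ± 0.87 in ERBOE eutopic and -1.15 ± 3.65 in PRCre eutopic, and 0.55 ± 0.97 in ERBOE uterus and -1.65 ± 2.05 in PRCre uterus (SD, n = 3 each).

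Sprr2d, a cornified envelope precursor whose gene neighbours Sprr2e, had the widest range of the members. In ectopic lesions its level was 5.22, 2.75 and 0.81 in ERBOE, against -1.66, 1.98 and -1.55 in PRCre. In eutopic endometrium it was 1.74, -5.16 and -1.68 in ERBOE, against -6.90, 5.09 and -3.18 in PRCre. In uterus it was -4.17, -3.16 and -1.79 in ERBOE, against -2.08, -3.84 and -6.35 in PRCre. PRCre eutopic replicate 1 and PRCre uterus replicate 3 were not well above background. The ectopic arrays were above the uterus arrays of their own genotype without overlap, in ERBOE by a wide margin and in PRCre by a small one, and the eutopic arrays spread across both. The order of the group means was 2.93 ± 2.21 in ERBOE ectopic, -0.41 ± 2.07 in PRCre ectopic, -1.66 ± 6.14 in PRCre eutopic, -1.70 ± 3.45 in ERBOE eutopic, -3.04 ± 1.19 in ERBOE uterus and -4.09 ± 2.14 in PRCre uterus (SD, n = 3 each), and the step between any neighbours in it was smaller than the sum of their SDs.

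Sprr2e was well above background on 9 of the 18 arrays. In ectopic lesions its level was -3.07, -1.44 and -3.43 in ERBOE, all well above background, against -7.34, -3.66 and -5.11 in PRCre, where only the middle value was. In eutopic endometrium it was -5.06, -5.24 and -6.05 in ERBOE, against -6.64, 0.90 and -6.35 in PRCre. In uterus it was -5.40, -4.43 and -5.23 in ERBOE, against -5.57, -2.57 and -5.98 in PRCre. The ERBOE ectopic group was the only one of the 6 groups with Sprr2e well above background on all its arrays. It was so on 2 of 3 arrays in ERBOE eutopic, and on 1 of 3 in each of ERBOE uterus, PRCre eutopic and PRCre uterus. The Sprr2e differences given below thus rest in part on readings not well above background. PRCre eutopic replicate 2 was the highest array, as for Sprr1a, Sprr2b, Sprr2f and Sprr2g.

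**Figure D1:**
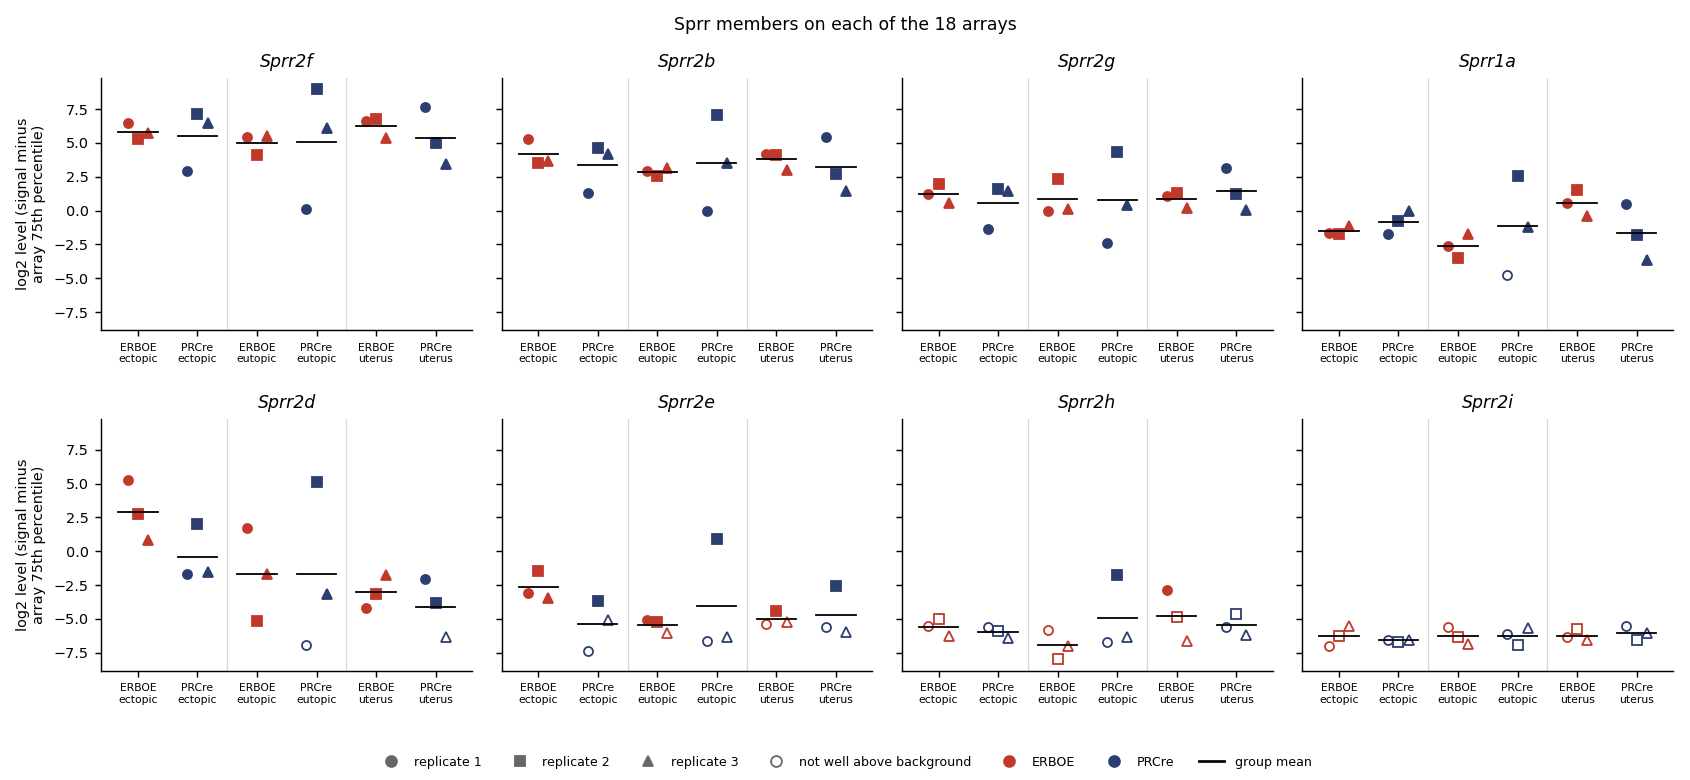
Level of each of the 8 members on every array, as log2 intensity minus the array's 75th percentile (vertical axis), by group along the horizontal axis. Circle, square and triangle are replicates 1, 2 and 3, open markers are not well above background, and the line is the group mean. PRCre eutopic replicates 1 and 2 lie far apart for Sprr2f (0.14 and 8.95) and most other members, and Sprr2d is highest in ERBOE ectopic lesions.

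Sprr2h and Sprr2i code for the same kind of envelope precursor and were near or below the detection limit. Sprr2h has 2 probes, each well above background on 2 arrays. The brighter probe was so on PRCre eutopic replicate 2 (-1.78) and ERBOE uterus replicate 1 (-2.87), and the other on PRCre eutopic replicate 2 (-1.40) and PRCre ectopic replicate 2 (-2.51). The array that was highest for most tested members was thus the only one on which both Sprr2h probes were detected. The Sprr2i probe was well above background on 0 arrays, with readings of -6.99 to -5.56.

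Other Sprr genes of the cluster gave a mixed picture. Sprr2k ranged from -0.67 on PRCre eutopic replicate 1 to 6.34 on PRCre eutopic replicate 2, and the pseudogene Sprr2j-ps from -1.29 to 6.22 on the same arrays. Sprr2a2 has 3 probes that disagreed. Its brightest probe varied by only 1.67 over the 18 arrays, from 7.29 to 8.96. The highest level was on PRCre uterus replicate 1, the array with the lowest 75th percentile signal. Before scaling, the signal of this probe ran from 86127 to 167830. Another probe ran from -4.20 on PRCre eutopic replicate 1 to 6.07 on PRCre eutopic replicate 2, and the third was well above background on 2 arrays. Sprr4 was well above background on 4 arrays, and Sprr1b and Sprr3 on 0. Near-identical Sprr2 sequences can share a probe, and how far each probe reads its own gene alone was not tested here.

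Pooled over the 6 groups, the members differed between arrays of a group far more than most features did. This rests in large part on PRCre eutopic, where each member had its largest SD, from 3.37 for Sprr2g to 6.14 for Sprr2d. In ERBOE the SD went as low as 0.26 for Sprr2b in eutopic endometrium and 0.34 for Sprr1a in ectopic lesions (n = 3 each). The SD within groups, pooled over the 6 groups, was 1.83 for Sprr1a, 1.89 for Sprr2b, 3.29 for Sprr2d, 2.12 for Sprr2e, 2.29 for Sprr2f and 1.78 for Sprr2g, against a median of 0.486 over all features tested. From the lowest to the highest array, Sprr2f spanned 450-fold, Sprr2b 135-fold, Sprr2g 105-fold and Sprr1a 157-fold, the last with its lowest array below the detection limit. The share of the variance that lay within groups was 93.3% for Sprr2b and 95.6% for Sprr2g, with Sprr2f between them, and was lower for Sprr2e (76.1%), Sprr1a (71.0%) and Sprr2d (59.2%), against a median of 67.7% over all features. Of 18 pairs of member and tissue, the SD over arrays was larger in PRCre than in ERBOE in 17, and Sprr2d in ectopic lesions was the exception, with 2.21 in ERBOE and 2.07 in PRCre. The 18 pairs share the same 18 arrays, so they are no independent counts. How often the SD was larger in PRCre over all features was not counted. Whether this is particular to the members was therefore not tested.

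The members moved together from array to array. Over the 18 arrays, which share the array scaling, the Pearson correlation between 2 members was 0.42 to 0.96 over 15 pairs, with a median of 0.69. The highest was between Sprr2b and Sprr2f and the lowest between Sprr1a and Sprr2d. Without PRCre eutopic replicates 1 and 2, the arrays that stand farthest out, the 15 correlations over 16 arrays ran from 0.03 to 0.94 with a median of 0.47. Sprr2b and Sprr2k correlated at 0.996 over 18 arrays and at 0.994 without those arrays, while the brightest Sprr2a2 probe correlated with Sprr2b at -0.04 and its widely varying probe at 0.88. Averaged over the 6 tested members, each centred on its own mean, PRCre eutopic replicate 2 stood 4.33 above and PRCre eutopic replicate 1 stood 3.91 below the average array. The next highest was ERBOE ectopic replicate 1 at 1.77 and the next lowest PRCre uterus replicate 3 at -2.32. The SD of this average over the arrays of a group was 0.61 in ERBOE ectopic and 1.61 in PRCre ectopic, 0.61 in ERBOE eutopic and 4.15 in PRCre eutopic, and 0.43 in ERBOE uterus and 1.68 in PRCre uterus.

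**Figure D2:**
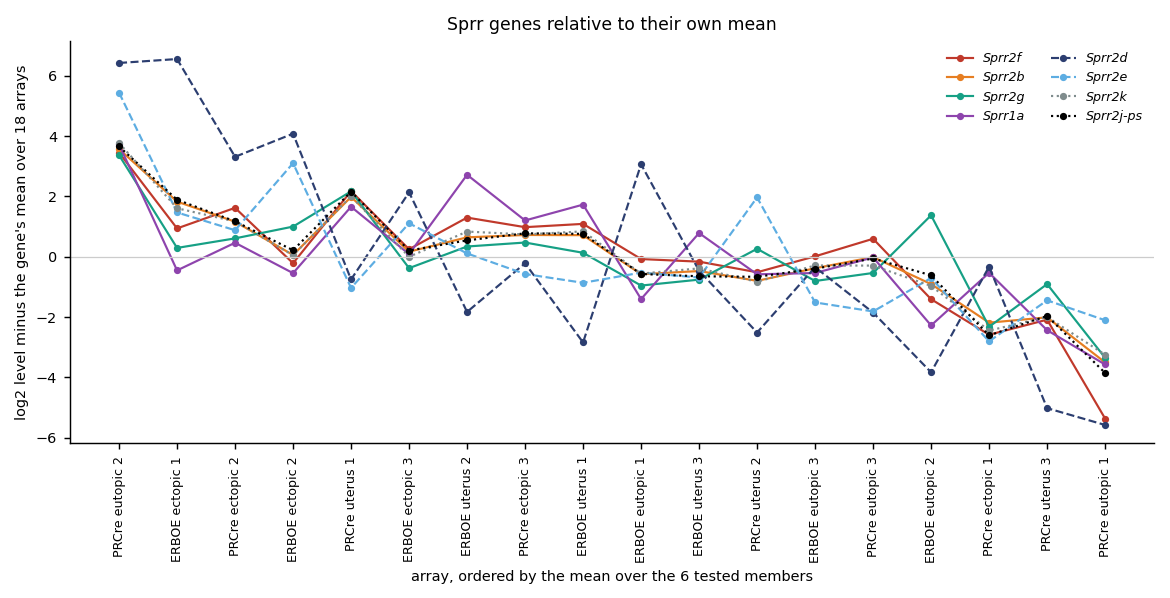
Level of each tested member and of Sprr2k and Sprr2j-ps, minus that gene's own mean over the 18 arrays (log2, vertical axis), with the arrays ordered by the mean over the 6 tested members (horizontal axis). Solid lines are Sprr2f, Sprr2b, Sprr2g and Sprr1a, dashed lines Sprr2d and Sprr2e, and dotted lines Sprr2k and Sprr2j-ps. The lines run together from PRCre eutopic replicate 1, where the mean over members is -3.91, to PRCre eutopic replicate 2, where it is 4.33, and the dashed lines stray most.

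The first comparison was of ERBOE with PRCre in each tissue as labelled, the contrast that the series title puts to oestrogen receptor beta. No member passed the test in any tissue (limma, adjusted p under 0.05 over all features) under any setting tried, and 0 of 6 had an unadjusted p under 0.05, where 4.46% of all features did in ectopic lesions, 2.94% in eutopic endometrium and 9.88% in uterus. With the model described, no other feature passed either, a share of 0% in ectopic lesions, 0% in eutopic endometrium and 0% in uterus. In ectopic lesions Sprr2d differed by 3.33 ± 2.45 (SE, 95% interval -1.90 to 8.56) and Sprr2e by 2.73 ± 1.58 (-0.65 to 6.10, adjusted p = 0.993). All 3 ERBOE ectopic arrays were above all PRCre ectopic arrays for Sprr2e alone among the members, a pattern that 5.02% of all features showed. Within slides, the Sprr2e difference was 3.67 on slide 1 and 2.07 on slide 2, and that of Sprr2d was 4.30 and 0.64. Sprr2f differed by 0.32 and Sprr2g by 0.72, and Sprr1a by -0.68. The median over the 6 members was 0.75, against -0.06 over all features, but it was -0.25 without PRCre ectopic replicate 1, 1.32 without PRCre ectopic replicate 2 and -0.07 within slide 1.

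In eutopic endometrium the 6 differences ran from -1.45 ± 1.37 for Sprr1a to 0.05 for Sprr2g (adjusted p = 1.00 for each), and 0 members had groups that did not overlap, against 5.04% of all features higher and 3.91% lower. These differences rest on the extreme PRCre arrays. The median over members was -0.35 with all arrays, -2.59 without PRCre eutopic replicate 1 and 1.48 without PRCre eutopic replicate 2. In uterus the differences were 2.20 ± 1.37 for Sprr1a (95% interval -0.72 to 5.12, adjusted p = 0.618), 1.05 ± 2.45 for Sprr2d and 0.88 ± 1.71 for Sprr2f (-2.78 to 4.54, adjusted p = 0.893). Within slides 1, 2 and 3 the Sprr1a difference was 3.22, 3.30 and 0.07, and that of Sprr2f was 1.92, 1.81 and -1.09. In uterus 0 members had groups that did not overlap, against 6.22% of all features higher and 8.22% lower. The median over members in uterus was 0.73, against -0.11 over all features, but it was -0.19 without PRCre uterus replicate 3, 1.87 without PRCre uterus replicate 1 and -1.18 within slide 3. Averaged over the 3 tissues, Sprr2f differed by 0.38 ± 0.99 (-1.73 to 2.50), Sprr2d by 1.45 ± 1.41 and Sprr1a by 0.02, and 0 members passed where 0.0121% of all features did. The intervals are wide, so changes of several fold in either direction were not detectable with 3 arrays a group.

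The second comparison was of ectopic lesions with eutopic endometrium, in tissue 4 weeks after surgery, with lesion and endometrium from different animals. In ERBOE, 6 of 6 tested members were higher in lesions, against 38.1% of all features, and 0 passed the test, where 0.6% of all features passed, 0.464% as higher. The 6 members moved together over the same arrays, so they are no independent counts. The smallest differences were 0.43 ± 1.33 for Sprr2g and 0.81 ± 1.71 for Sprr2f. The difference was 4.63 ± 2.45 for Sprr2d (unadjusted p = 0.0788, adjusted p = 0.54), 2.81 ± 1.58 for Sprr2e (0.0962 and 0.579) and 1.31 ± 1.41 for Sprr2b (adjusted p = 0.814). Sprr2b and Sprr2e did not overlap between the groups, which was true of 6.68% of all features in that direction. For Sprr2d, the slide values went opposite ways, -0.93 on slide 2 and 8.64 on slide 3, while Sprr2e gave 1.64 and 2.58. In PRCre the differences ran from -1.34 for Sprr2e to 1.26 for Sprr2d, and 0 members passed, where 0.00301% of all features did. No member was free of overlap in PRCre, against 2.72% of all features higher and 3.88% lower. The median over members was 1.205 in ERBOE and 0.11 in PRCre, against -0.13 and -0.06 over all features. The PRCre median ran from -1.85 without PRCre eutopic replicate 1 to 1.92 without PRCre eutopic replicate 2, so its direction and its distance from the ERBOE median rest on 1 array. In the test of the difference between the genotypes, 0% of all features passed.

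Against uterus without surgery, lesions had more Sprr2d and less Sprr1a in ERBOE by their means, and again 0 members passed. Lesion and uterus differ in surgery, host and site as well as in tissue, and these cannot be told apart. In ERBOE, where 1.24% of all features passed, 0.949% as higher and 0.292% as lower, Sprr2d was 5.97 ± 2.45 higher in lesions (95% interval 0.74 to 11.2, a mean ratio of 62.5-fold, unadjusted p = 0.0281, adjusted p = 0.329). It was the only 1 of 6 members under 0.05 before adjustment, where 11.9% of all features were. Within slides the difference was 4.54, 3.96 and 9.39. Sprr2e was 2.37 ± 1.58 higher (adjusted p = 0.621), with slide values of 3.79, 1.00 and 2.33, but only 1 of 3 ERBOE uterus arrays was well above background for it. Sprr1a differed by -2.05 ± 1.37 (adjusted p = 0.622), with slide values of -1.33, -2.63 and -2.18. These 3 members did not overlap between the groups, which was true of 8.46% of all features as higher and 11.3% as lower. Sprr2f, at -0.42, and Sprr2b, at 0.39, were near 0 beside them. In PRCre, where 0.00904% of all features passed, 0.00603% as higher, Sprr2d was 3.68 ± 2.45 higher (adjusted p = 0.602), with 4.80 and 4.00 on slides 1 and 2, and was the only member free of overlap, as were 5.08% of all features higher and 8.62% lower. The ERBOE and PRCre values of Sprr2d thus lay on the same side, and 0% of all features, the members included, passed the test of the difference between genotypes in this contrast.

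Eutopic endometrium against uterus compares tissue from hosts that had surgery and a wild-type implant with tissue of mice that had none. No feature passed in ERBOE (0%) or in PRCre (0%). In ERBOE, Sprr1a differed by -3.15 ± 1.37 (95% interval -6.07 to -0.23, unadjusted p = 0.0363, adjusted p = 1.00). Of the 6 members 1 was under 0.05 before adjustment, against 3.34% of all features. The difference was -4.12 on slide 2 and -3.14 on slide 3, and it was the only member without overlap between the groups, as were 4.51% of all features lower and 6.88% higher. The other members ran from -1.23 for Sprr2f to 1.34 for Sprr2d. In PRCre the 6 differences lay between -0.68 for Sprr2g and 2.43 for Sprr2d, and 0 members were free of overlap, against 3.66% of all features higher and 5.86% lower. The median over members in PRCre was 0.39 with all arrays, 2.11 without PRCre eutopic replicate 1 and -1.63 without PRCre eutopic replicate 2. The genotype difference in this contrast was -3.65 ± 1.93 for Sprr1a (adjusted p = 0.970), with -1.81 without PRCre eutopic replicate 2 and -5.45 without PRCre eutopic replicate 1, and 0% of all features passed. Comparisons that share a group share its arrays, so the values in ERBOE uterus stand behind both Sprr1a differences above.

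**Figure D3:**
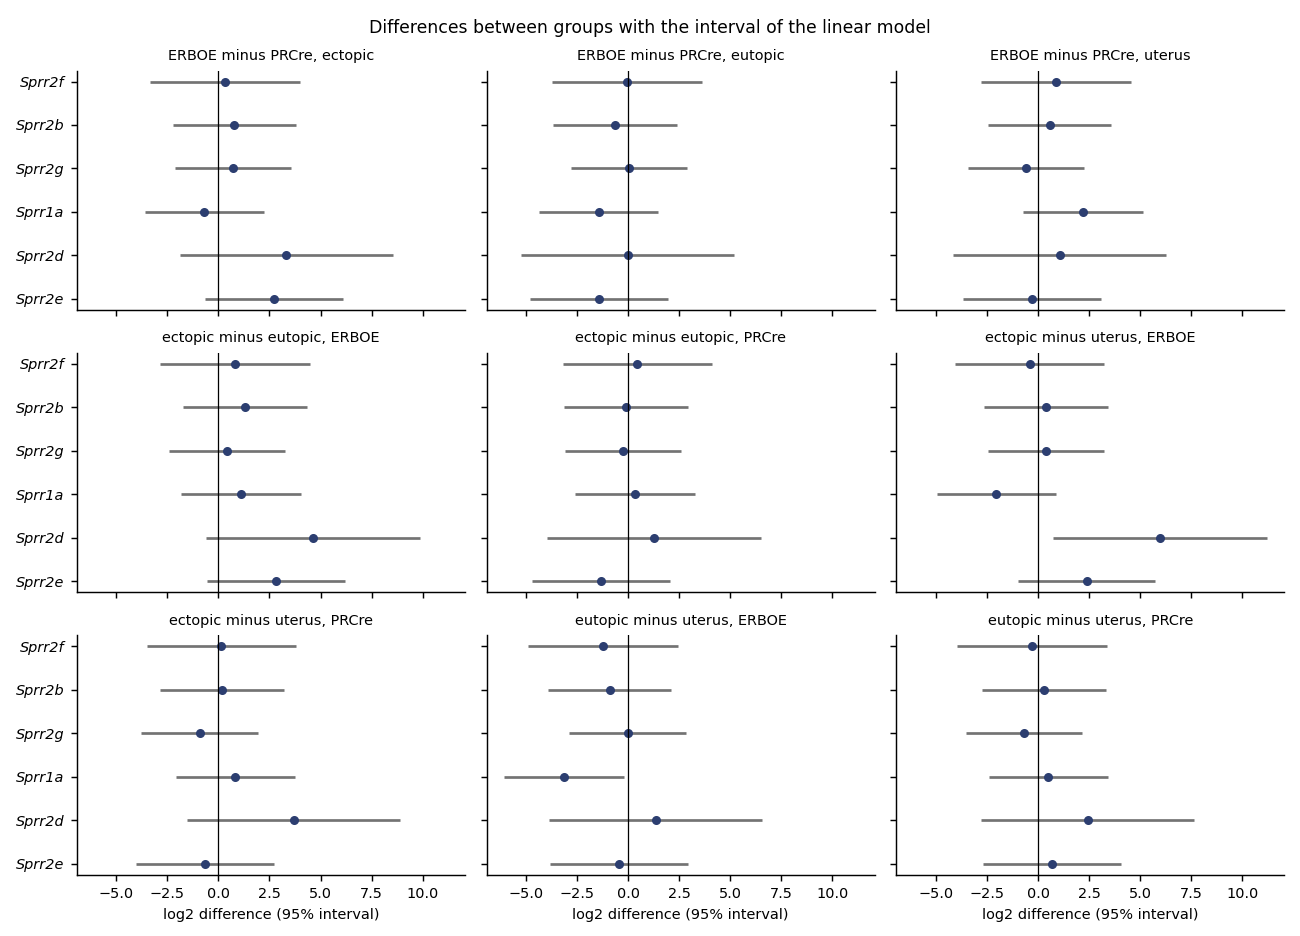
Difference between groups for each tested member (log2, horizontal axis) with its 95% interval from the limma model, in 9 panels of 1 comparison each. The first-named group of each panel is on the positive side. All intervals are several log2 units wide, and the 2 that leave 0 out are Sprr2d in ectopic minus uterus of ERBOE (0.74 to 11.2) and Sprr1a in eutopic minus uterus of ERBOE (-6.07 to -0.23), before adjustment.

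Each member was also taken relative to Sprr2f on the same array, which removes only a shift of equal size in both. Sprr2d varied more over the 18 arrays than Sprr2f (SD 3.59 against 1.98), so part of a shared shift can remain. Only the shift of this offset between arrays has a meaning, since the probes differ. Sprr2b kept its offset within 1 log2 unit between groups, with group means from -2.45 to -1.55. Its single arrays in PRCre eutopic ran from -2.61 to -0.14. Sprr2d had an offset of -2.90 ± 1.89 in ERBOE ectopic and -5.91 ± 1.85 in PRCre ectopic, -6.71 ± 2.81 in ERBOE eutopic and -6.73 ± 2.72 in PRCre eutopic, and -9.28 ± 1.91 in ERBOE uterus and -9.45 ± 0.54 in PRCre uterus (SD, n = 3 each). Sprr2d was thus highest relative to Sprr2f in lesions and lowest in uterus, in both genotypes by their means. Sprr2e showed -8.47 ± 1.52 in ERBOE ectopic and -10.88 ± 0.67 in PRCre ectopic, -10.46 ± 1.11 in ERBOE eutopic and -9.09 ± 2.97 in PRCre eutopic, and -11.26 ± 0.71 in ERBOE uterus and -10.07 ± 2.90 in PRCre uterus, with 9 of its 18 readings not well above background. Sprr1a showed -7.32 ± 0.67 in ERBOE ectopic and -6.32 ± 1.61 in PRCre ectopic, -7.61 ± 0.39 in ERBOE eutopic and -6.21 ± 1.22 in PRCre eutopic, and -5.69 ± 0.39 in ERBOE uterus and -7.004 ± 0.23 in PRCre uterus. In PRCre uterus the SD of the Sprr1a offset was 0.23, against 2.05 for the Sprr1a level itself. These offsets were chosen after the values were seen and are given without a test.

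**Figure D4:**
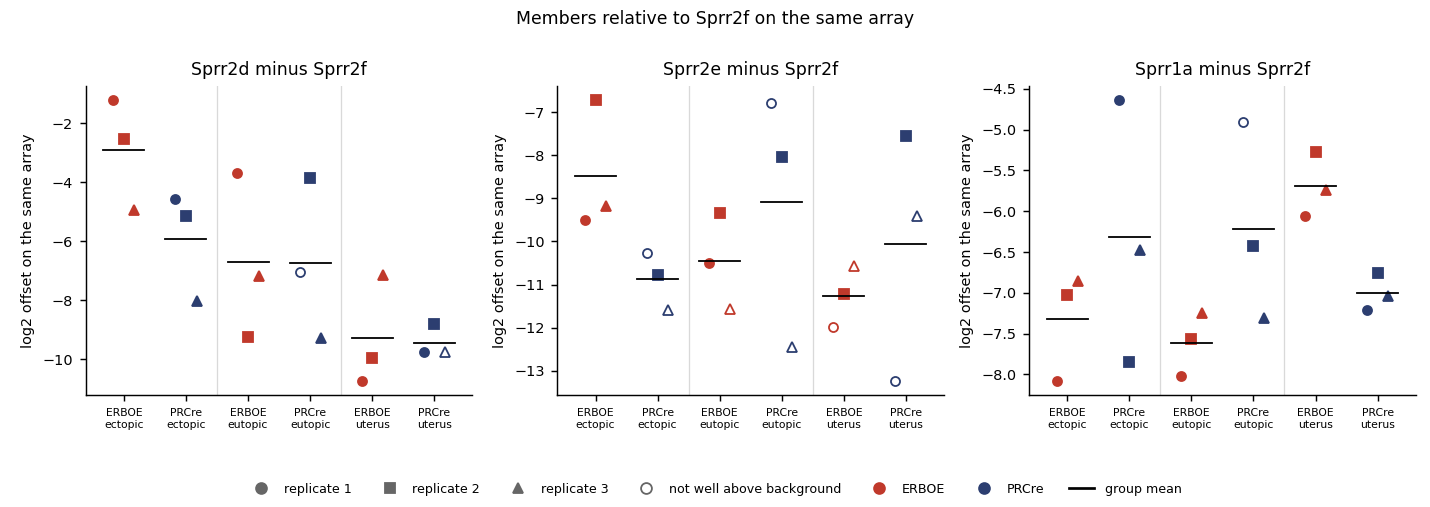
Level of Sprr2d, Sprr2e and Sprr1a minus the level of Sprr2f on the same array (log2, vertical axis) by group (horizontal axis). Circle, square and triangle are replicates 1, 2 and 3, open markers have the first gene not well above background, and the line is the group mean. The Sprr2d offset lies between -4.94 and -1.22 in ERBOE ectopic lesions and averages -9.28 in ERBOE uterus and -9.45 in PRCre uterus.

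Partners in the cornified envelope gave few calls. Of 17 listed partners 11 were tested, and Ivl, Csta1, Flg2, Hrnr and Rptn were well above background on 0 arrays. Ivl encodes involucrin, the classic scaffold of the envelope. Of the 11, 1 passed any test. This was Cdsn, which encodes corneodesmosin, an adhesion protein of cornified cells. Its level was -0.999, -0.18 and -0.56 in ERBOE ectopic, against -3.90, -4.53 and -4.52 in ERBOE eutopic and -4.68, -4.79 and -6.81 in ERBOE uterus, where the last 2 were not well above background. The lesions were above both other groups on every array. The difference was 3.74 ± 0.73 against eutopic endometrium (limma, adjusted p = 0.0299) and 4.84 ± 0.73 against uterus (adjusted p = 0.00447). In these contrasts 0.6% and 1.24% of all features passed. Leaving out any 1 of the 6 arrays of the eutopic contrast ended that call, with adjusted p between 0.0715 and 0.135, while the uterus contrast stayed at 0.0327 or below. In PRCre lesions Cdsn was -2.19, -1.27 and -4.55, the last not well above background, and no PRCre contrast passed. The median difference of the 11 partners was -0.10 against eutopic endometrium and 0.07 against uterus in ERBOE, against -0.13 and -0.07 over all features. Of the first 4 listed, the correlation with the mean over the 6 Sprr members over 18 arrays was -0.57 for Lor (loricrin), 0.18 for Evpl (envoplakin), -0.11 for Ppl (periplakin) and, over 16 arrays with a value, 0.43 for Tgm1, the keratinocyte transglutaminase.

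Markers of squamous keratinocytes were tested for 9 of 12 listed genes and 0 passed in any of the 13 comparisons, with at most 2 under an unadjusted p of 0.05. The correlation with the mean over Sprr members was 0.07 for Krt5, 0.33 for Krt14 and 0.40 for Trp63, which mark basal squamous cells, and -0.33 for Krt10, which marks suprabasal ones. With PRCre eutopic replicates 1 and 2 left out, these were 0.09, 0.50, 0.58 and -0.36. The mean level of the list lay between -2.82 and -1.25 on all arrays.

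Oestrogen-induced uterine genes other than the Sprr family were tested for all 20 listed, and their correlations with the mean over members went both ways. Of the 20, 12 were positive and 8 negative, from -0.64 for Klf15 to 0.76 for Ltf with a median of 0.29. The negative ones also included Ckb (-0.61), Igf1 (-0.50), Greb1 (-0.46), Ccnd1 (-0.45) and Aqp5 (-0.30). The first 4 of the list were among the positive ones. Ltf (lactoferrin) correlated with the mean over the 6 members at 0.76, Lcn2 (lipocalin 2) at 0.76, Muc1 (a surface mucin) at 0.65 and C3 (complement component 3) at 0.55 over the 18 arrays, which share scaling and RNA. Without PRCre eutopic replicates 1 and 2 these were 0.69, 0.66, 0.42 and 0.54. Ltf was 7.84, 5.02 and 6.44 in ERBOE ectopic, against 2.62, 7.01 and 7.01 in PRCre ectopic. It was 7.80, 3.84 and 6.58 in ERBOE eutopic, against 1.35, 8.07 and 6.44 in PRCre eutopic, and 7.09, 6.47 and 5.38 in ERBOE uterus, against 5.13, 2.46 and 1.56 in PRCre uterus. The lowest and highest of these were the same PRCre eutopic arrays as for Sprr2f. In uterus 17 of the 20 genes were higher in ERBOE, where 40.7% of all features were, with a median of 1.11 against -0.11 over all features, and 0 passed. The 20 genes were read on the same uterus arrays, so they are no independent counts. How far this median rests on single arrays was not tested. Ltf differed there by 3.26 ± 1.64, Lcn2 by 2.59 ± 1.81, Muc1 by 2.41 ± 1.31 and C3 by 1.56 ± 0.61, and 6 of the 20 had an unadjusted p under 0.05, against 9.88% of all features. The Sprr members gave a median of 0.73 in the same contrast, which was -0.19 without PRCre uterus replicate 3, with 0 of 6 under that level. In ERBOE lesions against ERBOE uterus 1 gene of the 20 passed, where 1.24% of all features did. It was Klf4, a zinc finger factor of epithelial differentiation. Its level was 3.18, 3.03 and 3.08 in lesions, against 5.06, 5.10 and 4.94 in uterus, and it fell by 1.94 ± 0.40 (adjusted p = 0.028). Leaving out any 1 of these 6 arrays ended the call, with adjusted p between 0.0655 and 0.108.

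Markers of epithelium as a whole moved with the members on the extreme arrays. The mean of 14 epithelial genes, all tested, was 2.17 to 2.26 in ERBOE ectopic and 1.46 to 3.09 in PRCre ectopic, 2.00 to 2.75 in ERBOE eutopic and 0.97 to 3.60 in PRCre eutopic, and 2.69 to 3.41 in ERBOE uterus and 1.42 to 1.97 in PRCre uterus. Its lowest array was PRCre eutopic replicate 1 and its highest PRCre eutopic replicate 2. Krt8, a keratin of simple epithelium, correlated with the mean over members at 0.55 over 18 arrays and at 0.21 without those arrays. Krt18, Epcam and Cdh1 gave 0.21, 0.45 and 0.42 over 18 arrays, and -0.12, 0.11 and 0.14 without those arrays. All 14 correlations over 18 arrays were positive, with a median of 0.48. In uterus 13 of 14 were higher in ERBOE, where 40.7% of all features were, with a median of 1.55, and 0 passed, with 9 under an unadjusted p of 0.05, against 9.88% of all features. These 14 genes too were read on the same arrays and are no independent counts, and the weight of single arrays was not tested. Krt8 differed by 1.80 ± 0.69 and Cdh1 by 1.99 ± 0.56 (adjusted p = 0.352). In bulk RNA, fewer epithelial cells and less Sprr RNA per epithelial cell cannot be told apart. Over the 18 arrays Krt8 ranged from 3.61 to 7.07 and Sprr2f from 0.14 to 8.95. These are different probes, so their ranges do not tell cell number from RNA per cell.

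Of the first 4 glandular markers, Lif, a cytokine of glandular epithelium, correlated with the mean over members at 0.74, while Foxa2, Spink1 and Cxcl15 gave -0.29, -0.48 and -0.49. When PRCre eutopic replicates 1 and 2 were left out, these 4 gave 0.47, -0.45, -0.43 and -0.36. Lif read -6.89 to -3.17 over the 18 arrays, and the lowest readings of Foxa2, Spink1 and Cxcl15 were -6.88, -6.57 and -7.94. Dim readings can weigh on these 4 correlations, and how far they do was not tested. Of 8 markers of endometrial stroma 5 correlated negatively, with Hoxa10 at -0.81, Hoxa11 at -0.77, Pdgfra at -0.64, Hand2 at -0.52 and Col1a1 at -0.20, while Vim (0.12), Dcn (0.14) and Lum (0.01) did not. The stromal list was lowest on PRCre eutopic replicate 2, at 3.40. Smooth muscle markers gave -0.34 for Myh11, -0.50 for Acta2, -0.44 for Cnn1 and -0.25 for Des, and -0.22, -0.33, -0.21 and 0.08 without PRCre eutopic replicates 1 and 2. None of the 6 gland, 8 stroma or 6 smooth muscle genes passed in any comparison, and at most 2, 3 and 0 of them had an unadjusted p under 0.05. The part of cell composition in the Sprr levels was not tested.

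**Figure D5:**
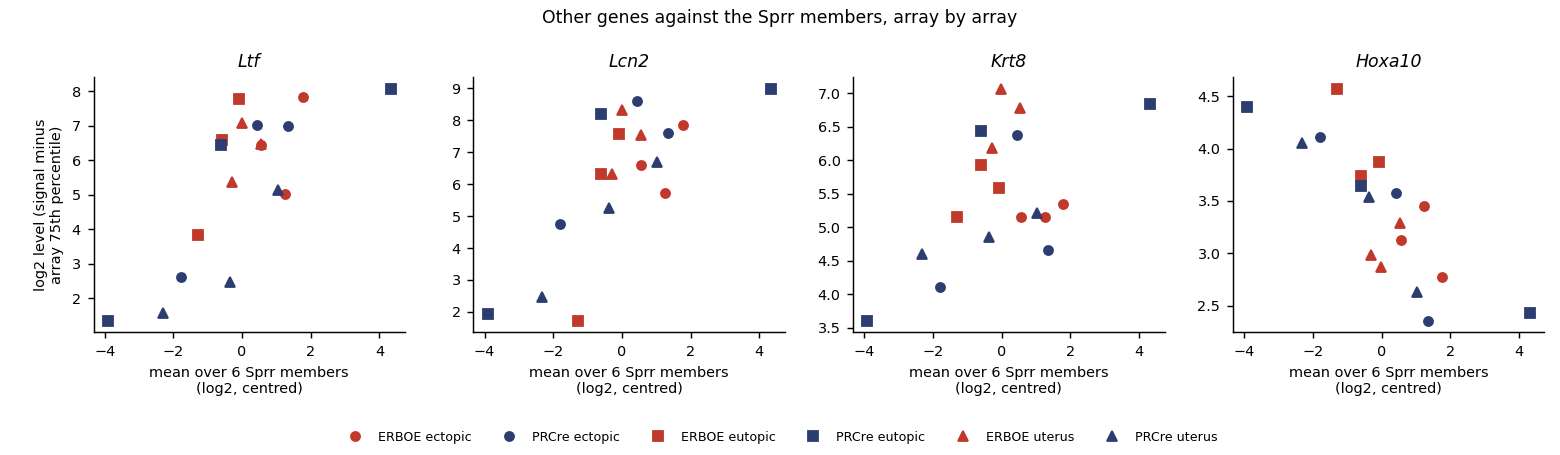
Level of Ltf, Lcn2, Krt8 and Hoxa10 (log2 intensity minus the array's 75th percentile, vertical axes) against the mean over the 6 tested members, each centred on its own mean (log2, horizontal axis), 1 point per array. Marker shape is the tissue, and red is ERBOE and blue PRCre. Ltf and Lcn2 run upward with the members (correlation 0.76 each), Krt8 less so (0.55), and Hoxa10 runs downward (-0.81).

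Cells of the lesion site were also read. The mean of 5 adipocyte markers was 3.18 to 3.59 in ERBOE ectopic and 0.98 to 3.17 in PRCre ectopic, -4.50 to -0.20 in ERBOE eutopic and -3.68 to -0.13 in PRCre eutopic, and -4.85 to -3.10 in ERBOE uterus and -3.59 to -3.16 in PRCre uterus. Of these genes 4 passed in ERBOE lesions against eutopic endometrium, where 0.6% of all features did, and 4 against uterus, where 1.24% did. Against uterus, Adipoq was 9.66, Plin1 7.34 and Cidec 9.56 higher (limma, adjusted p = 0.00645, 0.000926 and 0.00517). In PRCre lesions against uterus these 3 were 7.29, 5.27 and 7.45 higher and did not pass (limma, adjusted p = 0.104, 0.0553 and 0.092). Sprr2d and Sprr2e were also highest on average in ERBOE lesions, and the part of host tissue in the lesion values was not tested. Across the 18 arrays, Adipoq, Plin1, Lep and Cidec correlated with the mean over members at 0.09, 0.22, 0.22 and 0.09. With PRCre eutopic replicates 1 and 2 left out, these were 0.46, 0.54, 0.26 and 0.48. The mean of 6 leukocyte markers was -0.13 to 0.98 in ERBOE ectopic and 0.39 to 1.65 in PRCre ectopic, -1.07 to 0.08 in ERBOE eutopic and -1.34 to -0.14 in PRCre eutopic, and -1.69 to -1.11 in ERBOE uterus and -0.73 to 0.05 in PRCre uterus, and 1 of the 6, S100a8, passed in ERBOE lesions against uterus. In that contrast 1.24% of all features passed. Correlations were 0.35 for Ptprc, 0.35 for Cd3e and 0.53 for Adgre1. Of 5 mesothelial markers 0 passed and 0 had an unadjusted p under 0.05, and Msln, Upk3b, Wt1 and Lrrn4 gave 0.16, -0.15, -0.68 and -0.21. Of the steroid receptor genes Esr1 gave -0.57, Esr2 -0.40 and Pgr -0.51, and none of these passed in any comparison, with Esr1 in ERBOE lesions against uterus the only one under an unadjusted p of 0.05 (limma, adjusted p = 0.386).

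The features whose level followed the mean over the 6 members most closely were picked from all features tested outside the Sprr family. Over the 18 arrays these were Btbd17 (correlation 0.89), Slc26a9, an anion transporter of epithelia (0.88), Trim15 (0.86), Pgk1, a glycolytic kinase (0.85), Smox, a spermine oxidase (0.84), and Pmaip1, a pro-apoptotic BH3-only gene (0.84). With each group's mean removed, so that only differences between arrays of a group count, they were Btbd17 (0.94), Otud3 (0.94), Slc26a9 (0.92), Rps6ka1, a ribosomal S6 kinase (0.91), Klk11, a kallikrein-related protease (0.91), and Gch1, the first enzyme of tetrahydrobiopterin synthesis (0.91). Btbd17 and Slc26a9 were in both sets. They were chosen as the highest of all features on these arrays, and the same pair of PRCre eutopic arrays weighs on each.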

How the data were processed

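Total RNA pooled from 3 mice was hybridised per array, on 18 one-colour Agilent arrays. The deposited scanner files hold spot intensity, background-subtracted and detrended by Agilent Feature Extraction 11.0.1.1 per the file headers, with no scaling between arrays. In the value table the deposited log2 values are centred per probe, by steps of the authors not given in the sources used here.

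Control spots were left out, log2 was taken of the processed intensity, each array's 75th percentile was subtracted over all non-control spots, and spots that the scanner software called outliers were dropped before spots of 1 probe were averaged. Accessions were matched to the RefSeq gene table of GRCm38.p6, which named 32994 of 56605 probes. Where a symbol had several probes the brightest was taken, which gave 22911 symbols, and unnamed probes kept their identifiers. A probe was tested if well above background on at least 3 of 18 arrays, which left 33178 features.

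One limma 3.58.1 model in R 4.3.3 held 6 group means, moderated by empirical Bayes (12 residual and 2.49 prior degrees of freedom), and its tests were 2-sided. It gave 13 comparisons: ERBOE against PRCre in each tissue and averaged over tissues, the 3 tissue contrasts in each genotype, and the 3 differences of those contrasts between genotypes. Benjamini-Hochberg adjustment ran over all features, with 0.05 as threshold. With 3 arrays against 3 an exact permutation test cannot go below p = 0.1, so none is given. The number of arrays limits the precision. Replicates are pools of different mice. The script was tested on simulated data. Correlations, motif searches and figures used Python 3.11.15 with numpy 2.4.6, pandas 2.3.3, Biopython 1.88 and matplotlib 3.10.9.

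The members and gene lists (other Sprr genes, cornified envelope partners, squamous, oestrogen-induced, epithelial, gland, stroma, smooth muscle, mesothelial, adipocyte and leukocyte genes and steroid receptors) were chosen with earlier results of these data known. Named were all members, the other Sprr genes, the first 4 tested genes of each other list, the 6 features most like the members over 18 arrays and with group means removed, and Esr1, Esr2 and Pgr, except that some listed genes are not reported here. Cdsn, Klf4 and S100a8 were named after their values were seen. Alternatives were normexp background correction with an offset of 50 (on the median signal, as the files hold no mean signal), quantile normalisation, other filters on dim probes, the deposited value table, slide or replicate as a block, array weights, other variance settings, only the compared groups, and each array left out.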

Additional observations from a re-analysis of the deposited data

How the results depend on the processing

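No member passed the threshold in any of the 13 comparisons under any of the alternatives tried (limma), so the results for the members rest on sizes and directions. Leaving out 1 array at a time changed the sign of 10 of the 13 medians over members, and the 3 that kept it were the ERBOE tissue contrasts. Of these, the median in ectopic minus uterus was 0.04 without ERBOE uterus replicate 3 (0.40 as reported). It was 1.14, -0.60 and 0.64 within slides 1, 2 and 3, so its direction was not stable. Beside the 3 given below, the sign changed for ERBOE minus PRCre in uterus (-0.19 to 1.87), in ectopic lesions (-0.25 to 1.32) and averaged over tissues (-0.39 to 0.93), for PRCre ectopic minus eutopic (-1.85 to 1.92) and ectopic minus uterus (-0.76 to 1.30), and for the genotype differences in ectopic minus eutopic (-0.71 to 3.01) and ectopic minus uterus (-0.23 to 1.56). The spread of the members' mean within groups was an SD of 1.98, and the values that moved by more than this, or turned the direction of a single gene, follow. With array weights, Sprr2d in ectopic minus eutopic of PRCre was -0.033 (1.26 as reported). Within slide 1 the median in ectopic minus uterus of PRCre was 2.90 (0.16), and its difference between genotypes was -1.23 (0.77). Within slide 2 Sprr2d in ectopic minus eutopic of ERBOE was -0.93 (4.63). Within slide 3 Sprr2f in ERBOE minus PRCre of uterus was -1.09 (0.88), and the median in eutopic minus uterus of PRCre was -1.77 (0.39). These slide values rest on 1 or 2 arrays a group. Leaving out 1 array at a time moved the median in ERBOE minus PRCre of eutopic endometrium between -2.59 and 1.48 (-0.35), that in eutopic minus uterus of PRCre between -1.63 and 2.11 (0.39) and its difference between genotypes between -3.18 and 1.18 (-1.10), with PRCre eutopic replicates 1 and 2 at the ends. It moved Sprr2f in uterus between -0.089 (PRCre uterus replicate 3 left out) and 2.04 (replicate 1 of that group left out), Sprr2f averaged over tissues between -0.44 and 1.03, Sprr2d in ectopic minus eutopic of PRCre between -1.36 and 4.64, and Sprr1a in ERBOE minus PRCre of eutopic endometrium between -3.26 and 0.39, the last 3 by PRCre eutopic replicates 1 and 2. Sprr2f averaged over tissues was -0.048 without PRCre ectopic replicate 1. Sprr2d in ectopic minus uterus of ERBOE stayed between 4.82 and 7.03 when 1 array was left out, and its adjusted p ran from 0.0923, with only the compared groups fitted, to 0.708. With the replicate number as a replicate block the estimates were the same, with 5.97 and an adjusted p of 0.358 for that difference, and 0 members passed. Deviations of same-numbered arrays from their group means correlated at a median of 0.03 over 45 pairs (-0.35 to 0.45). Those of other arrays correlated at -0.02 over 90 pairs (-0.38 to 0.40). Both ranges are wide, so these values cannot decide whether same-numbered arrays belong together. Requiring signal well above background on all 18 arrays gave no value for Sprr1a, Sprr2d or Sprr2e. Dim probes limit Sprr2e, Sprr2h and Sprr2i most.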
